A study of Mus musculus with 10 samples.

Results

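Transcripts made inside mitochondria were followed in mouse retina after an eye injection of carbon nitride nanoparticles. Mammalian mitochondria keep a small circular genome that encodes 13 proteins of the respiratory chain and ATP synthase, 2 ribosomal RNAs (rRNAs) and 22 transfer RNAs (tRNAs). Described here are 10 of them that have counts: 6 genes for subunits of complex I (mt-Nd1, mt-Nd2, mt-Nd3, mt-Nd4, mt-Nd5 and mt-Nd6), mt-Co1 for a subunit of complex IV, mt-Cytb for cytochrome b of complex III, and the rRNAs mt-Rnr1 and mt-Rnr2. They were found by symbol through their Ensembl mouse IDs (ENSMUSG00000064337 for mt-Rnr1 through ENSMUSG00000064370 for mt-Cytb) and make up 10 of the 57186 gene rows of the table and 10 of its 37 mitochondrially encoded rows. All 10 passed the low-count filter.

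Both groups were female C57BL6/JRj mice given an intravitreal injection, into the gel that fills the eye, and their neuroretinas were taken and frozen 14 days later. The CNP group received 1 µL of hg-C3N4 nanoparticles (1 mg/mL) diluted in PBS, a buffered saline, and the PBS group received PBS without particles, so both groups share the injection and the fluid. There were 5 libraries in each, named here by group and label number. Per the series' design, CNP retinas came from 5 mice and PBS retinas from 5 eyes. Whether those eyes belonged to other mice is unstated, so the tests measure the spread between these libraries. No age is stated in the labels.

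Mitochondrial genes are read from both strands of the circle as long precursors that are then cut at the tRNAs between them. The 2 rRNAs and nearly all mRNAs come from the heavy strand, whereas mt-Nd6 is the lone mRNA of the light strand. Most mitochondrial mRNAs receive a short poly(A) tail and the rRNAs carry very short ones, and photoreceptors, which spend much energy on ion pumping, hold dense clusters of mitochondria in their inner segments.

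Library totals ran from 3493667 to 5354649 counts in CNP and from 3328518 to 5428697 in PBS. Markers of rods, the main cell type of the mouse retina, were present in every library, with 6 of 6 detected. Their summed level was 45190 to 55175 CPM (counts per 1000000) in CNP and 42463 to 64439 CPM in PBS. Marker levels are scaled by library totals alone. Markers of lens were also present in every library, at 235 to 3794 CPM in CNP and 204 to 7734 CPM in PBS, as were markers of pigment epithelium, at 934 to 2203 CPM in CNP and 479 to 1900 CPM in PBS (6 of 6 and 5 of 5 detected). Skeletal muscle markers (4 of 4 detected) summed to 84.7 CPM in CNP 12, against 7.84 to 10.7 CPM in the other CNP libraries and 6.38 to 11.4 CPM in PBS, so CNP 12 stood apart, and results without it are given below. No marker of these 4 lists was at 0 in all libraries. Their part in the mitochondrial values was not tested.

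Of the 13 protein-coding mitochondrial genes, 5 had 0 counts in every library: mt-Co2, mt-Co3, mt-Atp6, mt-Atp8 and mt-Nd4l, which encode subunits of complex IV, ATP synthase and complex I. Over the 44317412 counts of all libraries a count of 0 allows up to 0.0677 CPM, for counting error only. Their neighbours on the same precursor, mt-Co1 and mt-Nd4, had 41759 and 87769 counts in all. The genes at 0 lie side by side on the mitochondrial genome, interrupted by mt-Nd3, which had 6518.

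Copies of this stretch are annotated in the nuclear genome. Transcript sequences of GENCODE release M21 were compared with those of the mitochondrial genes, counting the 50-base windows of each gene that occur unaltered in a transcript of another gene. Every window of mt-Co2 was shared, and the share was 99.9% for mt-Co3, 99.5% for mt-Atp6 and 98.8% for mt-Nd4l. It was 98.0% for mt-Nd3, 62.2% for mt-Nd4 and 51.1% for mt-Co1. It was 8.2% for mt-Nd2, 7.6% for mt-Nd5 and 1.0% for mt-Rnr2, and no window of mt-Nd1, mt-Cytb, mt-Nd6 or mt-Rnr1 was shared. With 100-base windows the shares were 30.8% for mt-Co1, 60.8% for mt-Nd4, 97.6% for mt-Nd3 and 99.5% for mt-Co2. The exception among the genes at 0 was mt-Atp8, none of whose windows was shared; its last 43 bases overlap mt-Atp6, and the nuclear sequence between the annotated copies of mt-Co2 and mt-Atp6 was not analysed here.

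On chromosome 1, 7 annotated pseudogenes were such copies, and 5 of them matched the mitochondrial gene without a mismatch. These are Gm28661 (681 bases of mt-Co2), Gm10925 (678 of mt-Atp6), Gm28437 (783 of mt-Co3), Gm10222 (294 of mt-Nd4l) and Gm28439 (the first 876 of the 1378 bases of mt-Nd4). Gm28438 aligned with 345 bases of mt-Nd3 and differed from it by 1 base, written T3C with the mitochondrial base first and positions counted from the first base of mt-Nd3. Gm29216 aligned with 492 bases at the 3′ end of mt-Co1 with 6 mismatches. Together these 7 pseudogenes had 3 counts in the 10 libraries. A second copy of mt-Co1, Gm13340 on chromosome 2, was 97.61% identical over 1545 bases and had 39 counts. The treatment of reads that match several genes was not given in the sources used here, and the part of these copies in the counts was not tested. The levels of mt-Co1, mt-Nd3 and mt-Nd4 are therefore uncertain relative to the other genes.

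Stretches of 4 pairs show how close the copies are. For mt-Nd3 and mt-Atp6 the last 60 bases are given, with the bases beyond the end of the annotated copy in capitals.
mt-Nd3: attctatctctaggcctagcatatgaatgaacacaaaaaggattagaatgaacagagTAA
Gm28438: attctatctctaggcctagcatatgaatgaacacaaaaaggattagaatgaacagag
mt-Atp6: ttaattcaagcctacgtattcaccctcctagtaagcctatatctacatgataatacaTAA
Gm10925: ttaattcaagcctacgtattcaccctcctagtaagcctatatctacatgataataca
Both stretches are the same letters in the mitochondrial gene and in the copy up to the stop codon, yet mt-Nd3 had counts in all libraries and mt-Atp6 in none. For mt-Co1, bases 1054 to 1113 span the start of the copy, with mismatches in capitals (T1056A, C1057T, A1059G, A1060G, C1062A and A1066T, counted from the first base of mt-Co1). For mt-Nd4, bases 847 to 906 span the end of the copy, with bases beyond it in capitals.
mt-Co1: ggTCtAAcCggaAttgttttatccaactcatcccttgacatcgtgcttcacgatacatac
Gm29216: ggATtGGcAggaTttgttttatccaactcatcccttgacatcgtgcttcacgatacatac
mt-Nd4: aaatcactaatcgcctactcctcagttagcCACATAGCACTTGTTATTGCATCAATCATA
Gm28439: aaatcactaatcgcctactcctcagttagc
After its start the copy of mt-Co1 is identical to the end of the gene, whereas the 3′ part of mt-Nd4 has no annotated copy.

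**Figure D1:**
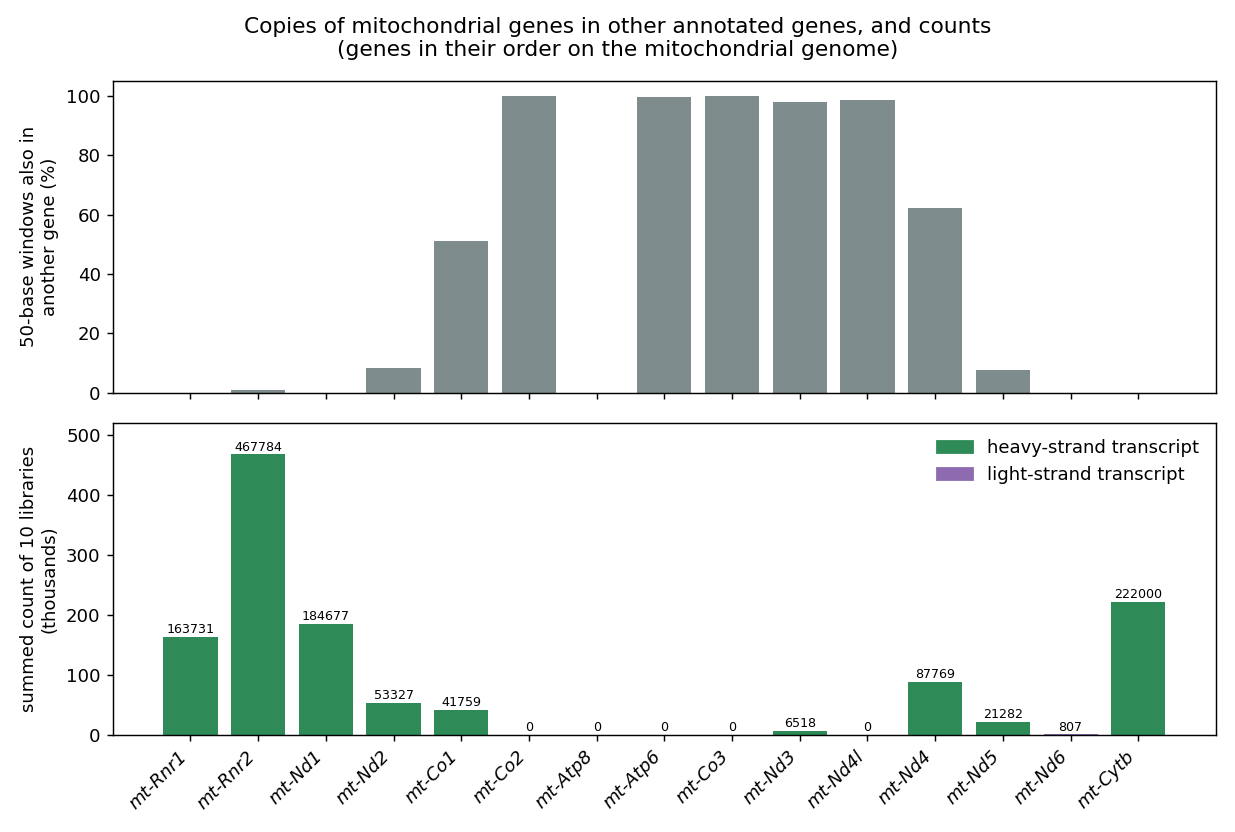
The upper bars give the percentage of 50-base windows of each mitochondrial gene that occur in a transcript of another gene, and the lower bars the summed count of the 10 libraries in units of 1000 counts, with genes in their order on the mitochondrial genome and colours for the strand of the transcript. The genes with 0 counts lie between mt-Co1 and mt-Nd4, where nearly all windows are shared except in mt-Atp8.

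Among the 22 tRNA genes, 13 had a count, with 458 counts in all and 21 to 75 per library. They were too few for a comparison.

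Together the 10 genes held 2.39%, 2.07%, 3.49%, 3.21% and 3.55% of all counts in CNP 4, 8, 12, 16 and 20, against 2.03%, 1.96%, 2.03%, 4.23% and 4.45% in PBS 2, 6, 10, 14 and 18. Exact 95% binomial intervals were at most 0.0222 percentage points on either side and cover counting error only. The mean share was 2.94% ± 0.673 in CNP and 2.94% ± 1.28 in PBS (SD, n = 5 each), a difference of 0.00271 percentage points against a spread of 2.27-fold between the lowest and the highest library. The mRNAs alone held 1.01% to 1.92% in CNP and 0.958% to 2.15% in PBS, and the rRNAs 1.06% to 1.89% in CNP and 0.919% to 2.68% in PBS. In bulk tissue fewer cells of a type and less RNA per cell cannot be told apart.

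Levels between genes were compared per length, as CPM scaled by TMM (edgeR's trimmed mean of M-values) and divided by the gene's length in kilobases. The highest was mt-Rnr2, the large-subunit rRNA, at 6728 ± 1572 CPM per kilobase in CNP and 7636 ± 4719 in PBS (SD, n = 5 each). It exceeded mt-Cytb in 10 of 10 libraries. The next 3 genes had similar levels: mt-Cytb at 4649 ± 1413 in CNP and 4639 ± 2267 in PBS, mt-Nd1 at 4774 ± 1486 in CNP and 4500.0 ± 2226 in PBS, and the small-subunit rRNA mt-Rnr1 at 4156 ± 1514 in CNP and 4169 ± 2439 in PBS (SD, n = 5 each). Their order per length changed between libraries, since mt-Cytb exceeded mt-Nd1 in 5 of 10 and mt-Nd1 exceeded mt-Rnr1 in 8 of 10. Counts not divided by length were higher for mt-Cytb than for mt-Nd1 in every library, with 20026 against 15414 in PBS 2.

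Below these came mt-Nd4 with 880 to 2638 CPM per kilobase over the 10 libraries, mt-Nd2 with 668 to 2154 and mt-Co1 with 359 to 1041, in this order in every library. The level of mt-Nd3 was 142 to 963 and that of mt-Nd5 132 to 455, with mt-Nd3 higher in 9 of 10. This order comes from the division by length. Undivided counts of mt-Nd5 exceeded those of mt-Nd3 in every library, with 1432 against 426 in PBS 2. The lowest was mt-Nd6, at 48.3 ± 30.4 CPM per kilobase in CNP and 27.97 ± 22.4 in PBS (SD, n = 5 each), below mt-Nd5 in 10 of 10. These are levels of what was captured by poly(A) priming and counted. The ranks of mt-Co1, mt-Nd3 and mt-Nd4 are uncertain for the reason given above. In libraries primed at poly(A), counts need not grow with gene length, and whether they do here was not tested. Ranks that rest on the division are therefore uncertain too. Among them are mt-Nd3 above mt-Nd5 and the similar levels of mt-Cytb and mt-Nd1, which undivided counts do not show.

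**Figure D2:**
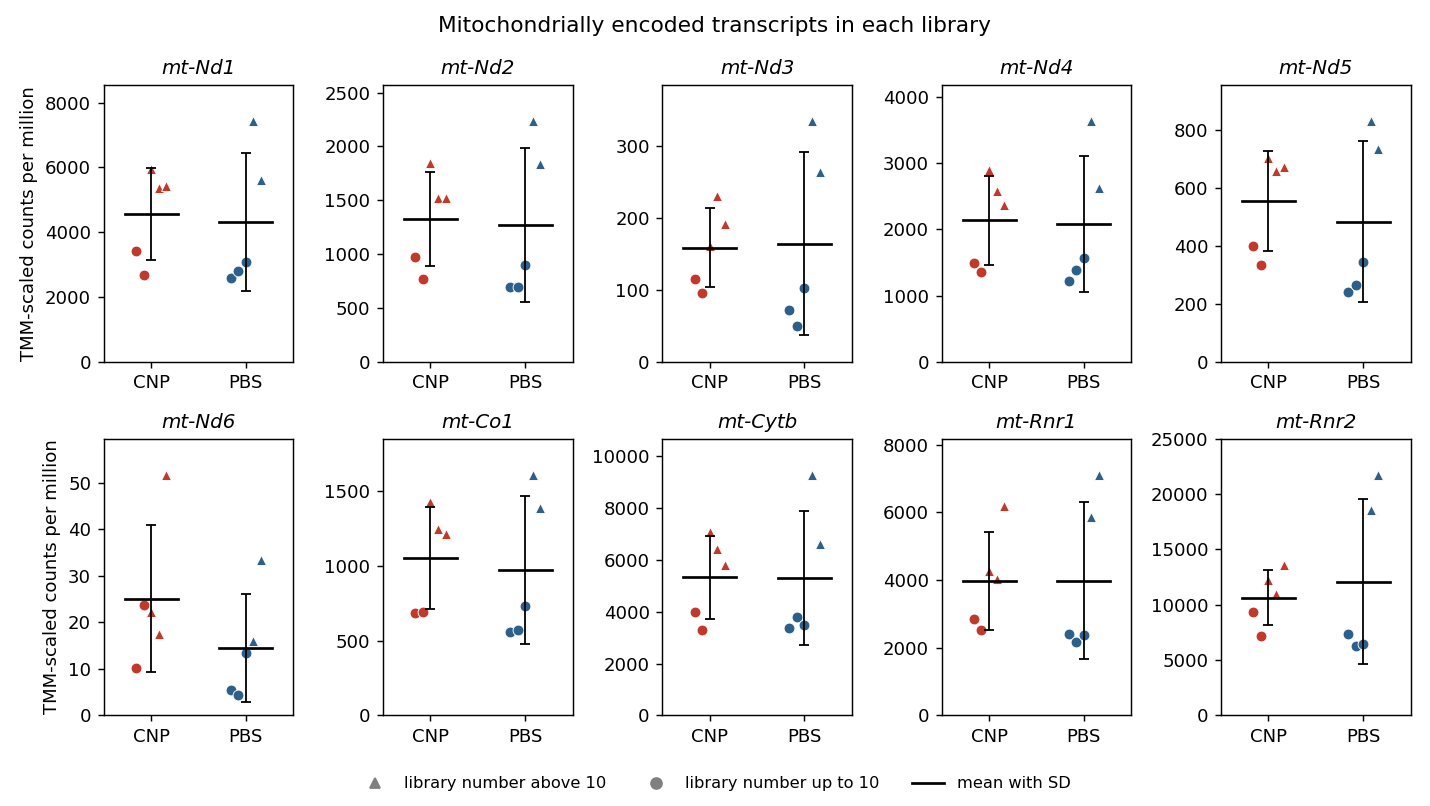
TMM-scaled CPM of each gene in each library, with CNP left of PBS in every panel, triangles for libraries with a label number above 10, circles for the others, and black lines for the mean with SD. CNP and PBS values overlap in all 10 panels, and triangles lie above circles in all panels but that of mt-Nd6.

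The summed mRNAs had a 2.25-fold range over the libraries as a share of counts. The ratio of a gene to the other mRNAs had a range of 1.12-fold for mt-Nd1 up to 1.43-fold for mt-Nd5 among the 6 longer heavy-strand mRNAs, 2.71-fold for mt-Nd3 and 6.58-fold for mt-Nd6. As a share of the counts of the 8 mRNAs, mt-Cytb held 35.2% ± 0.911 in CNP and 36.7% ± 2.45 in PBS, and mt-Nd1 30.1% ± 1.01 in CNP and 29.6% ± 0.353 in PBS (SD, n = 5 each). The share of mt-Nd4 was 14.1% ± 0.498 in CNP and 14.3% ± 0.628 in PBS, and that of mt-Nd2 8.71% ± 0.330 in CNP and 8.48% ± 0.905 in PBS. The other subunits held 6.93% ± 0.489 in CNP and 6.62% ± 0.577 in PBS for mt-Co1, and 3.65% ± 0.147 in CNP and 3.20% ± 0.455 in PBS for mt-Nd5. Exact 95% intervals of a library's shares were at most 0.437 percentage points on either side.

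The steadiest gene was mt-Nd1, a core membrane subunit of complex I, whose log2 ratio to the other mRNAs had an SD of 0.05 over the 10 libraries, against 0.01 from counting alone. The SD was 0.06 for mt-Nd4 and 0.12 for each of mt-Cytb, mt-Co1 and mt-Nd2, and 0.18 for mt-Nd5, the last complex I gene of the heavy strand. It was 0.43 for mt-Nd3, whose ratio was lowest in PBS 6 and highest in PBS 18 (2.71-fold apart), and 0.88 for mt-Nd6. The rRNAs lay between, with 0.28 for mt-Rnr1 and 0.28 for mt-Rnr2. From counting alone the SD was 0.06 for mt-Nd3 and 0.19 for mt-Nd6. If molecular identifiers were not collapsed, counting error is larger than the values given for counting alone.

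The short complex I gene mt-Nd3 measured 115, 96.0, 161, 231 and 192 CPM in CNP 4, 8, 12, 16 and 20, against 71.5, 49.3, 103, 335 and 264 CPM in PBS 2, 6, 10, 14 and 18. Its lowest and its highest values are both PBS libraries, and all CNP values lie between them.

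**Figure D3:**
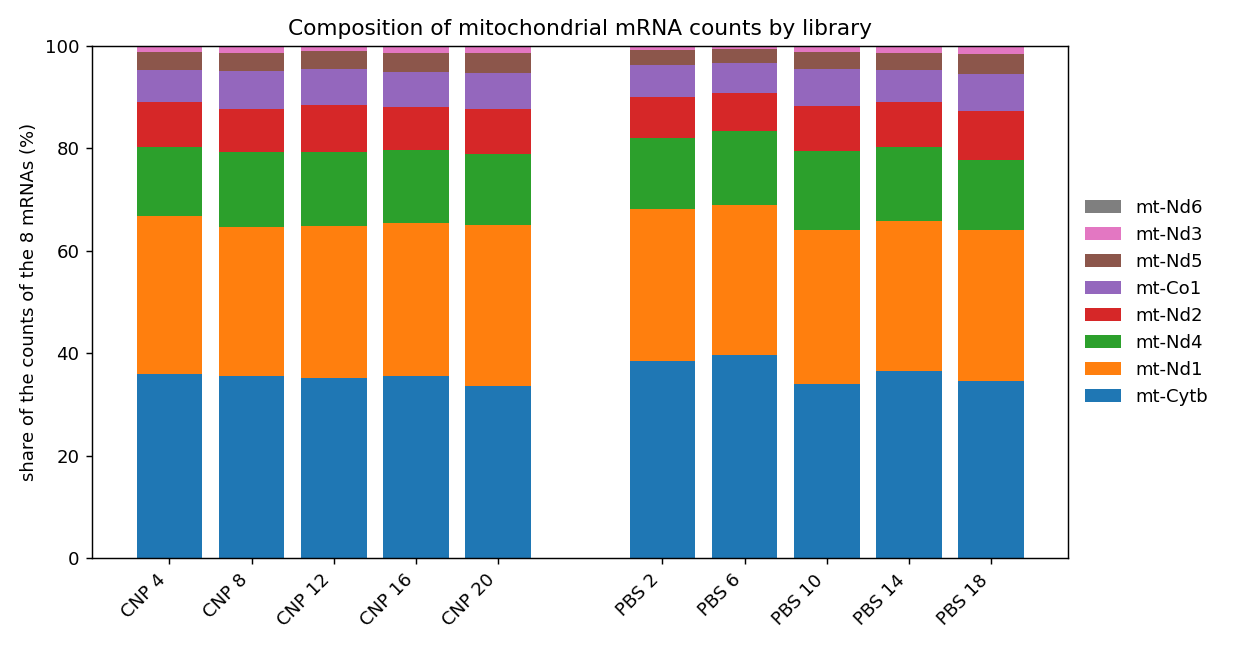
Share of each of the 8 mRNAs in their summed counts, in percent, as stacked bars by library, with CNP libraries left of PBS libraries. mt-Cytb takes 33.7% to 39.7% and mt-Nd1 29.1% to 31.5% of each bar.

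The ratio of rRNA to mRNA addresses whether the captured counts of these products moved apart. With poly(A) priming and very short tails on the rRNAs, the ratio also depends on capture, which was not tested. Its denominator includes the light-strand mt-Nd6, which held at most 0.300% of the mRNA counts of a library. Counts of mt-Rnr1 and mt-Rnr2 over those of the 8 mRNAs gave 1.10, 1.05, 0.821, 0.830 and 1.14 in CNP 4, 8, 12, 16 and 20, against 1.12, 0.881, 0.865, 0.962 and 1.51 in PBS 2, 6, 10, 14 and 18. The groups overlapped, and the highest ratio was that of PBS 18. Means were 0.988 ± 0.153 in CNP and 1.07 ± 0.267 in PBS (SD, n = 5 each), a log2 difference of -0.09 (exact permutation test over 252 assignments, two-sided, p = 0.659; p = 0.833 adjusted over 4 ratios). The smallest p this test can give is 0.00794. Without PBS 18 the log2 difference was 0.04.

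The rRNAs themselves varied widely. For mt-Rnr2, CPM was 9338, 7179, 12210.3, 10936 and 13558 in CNP 4, 8, 12, 16 and 20, against 7319, 6286, 6487, 18555 and 21750.2 in PBS 2, 6, 10, 14 and 18. For mt-Rnr1 it was 2835, 2528, 4252, 4042 and 6185 in CNP, against 2413, 2165, 2361, 5858 and 7109.97 in PBS, in the same library order. PBS 14 and PBS 18 were highest for mt-Rnr2, and PBS 18 and CNP 20 for mt-Rnr1.

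The 2 rRNAs are cut from one precursor, and mt-Rnr2 exceeded mt-Rnr1 in each library. Its counts were 3.29, 2.84, 2.87, 2.71 and 2.19 times those of mt-Rnr1 in CNP 4, 8, 12, 16 and 20, against 3.03, 2.90, 2.75, 3.17 and 3.06 in PBS 2, 6, 10, 14 and 18. Both the highest and the lowest ratio were CNP libraries, and the group means were 2.78 ± 0.396 in CNP and 2.98 ± 0.161 in PBS (SD, n = 5 each). The log2 difference was -0.11 (exact permutation p = 0.349, two-sided; p = 0.698 adjusted over 4 ratios). Without CNP 20 it was -0.03.

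The light-strand gene mt-Nd6 encodes a membrane subunit of complex I and differs in base content, with 22.2% A and 43.7% T in the sense strand, against 29.5% to 36.9% A in the other listed mRNAs. Its longest run of A was 3 bases, against 5 to 8 in the others. It ends against mt-Nd5 on the opposite strand, where they share 14 bases, shown in capitals in the last 60 bases of each gene.
mt-Nd5: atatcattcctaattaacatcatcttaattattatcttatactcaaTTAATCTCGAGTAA
mt-Nd6: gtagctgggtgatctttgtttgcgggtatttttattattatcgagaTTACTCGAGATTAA
Whether counting used strand was not given in the sources used here. In counts without strand, reads from heavy-strand RNA antisense to mt-Nd6 cannot be told apart from those of the gene.

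Counts of mt-Nd6 were 56, 118, 74, 74 and 209 in CNP 4, 8, 12, 16 and 20, against 33, 25, 62, 53 and 103 in PBS 2, 6, 10, 14 and 18. Exact 95% Poisson intervals were 182 to 239 for CNP 20 and 16.2 to 36.9 for PBS 6. Per 1000 counts of the 7 heavy-strand mRNAs (adding 0.5 to the mt-Nd6 count) this was 0.927, 2.57, 1.11, 0.980 and 3.01 in CNP, against 0.645, 0.458, 1.33, 0.634 and 1.76 in PBS, in the same library order. CNP 8 and CNP 20 exceeded all PBS libraries, and the other 3 CNP libraries lay within the PBS range. Means were 1.72 ± 0.992 in CNP and 0.965 ± 0.555 in PBS (SD, n = 5 each), a log2 difference of 0.83 (exact permutation p = 0.151, two-sided; p = 0.603 adjusted over 4 ratios). Leaving out CNP 20 gave 0.58, and leaving out PBS 18 gave 1.10.

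**Figure D4:**
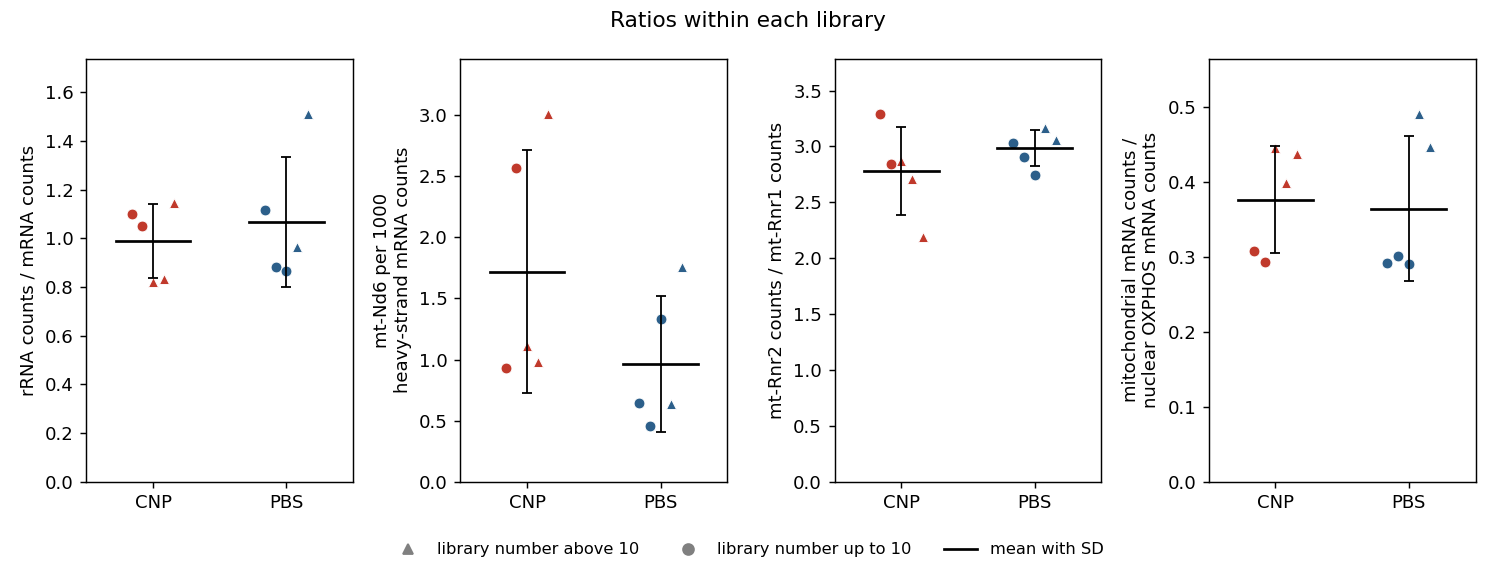
The 4 ratios of counts within each library, with CNP left of PBS, triangles for libraries with a label number above 10, circles for the others, and black lines for the mean with SD. The groups overlap in each ratio, and the ratio of mitochondrial to nuclear mRNA separates triangles from circles.

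CNP was then compared with PBS gene by gene. The test was edgeR's quasi-likelihood test over all 11499 genes that passed the low-count filter, and 0 of the 10 genes passed at a Benjamini-Hochberg adjusted p under 0.05, where 0% of all genes did. At an unadjusted p under 0.05 there were also 0, against 1.19% of all genes. Without PBS 18 there was 1, mt-Nd6, against 171 of 11711 genes, and every other fit with a changed setting or library had none. By DESeq2 and by limma-voom 0 passed as well. The groups did not overlap for 0 of the 10, against 0.287% of all genes. Log2 fold changes were positive for 7 and negative for 3, with a median of 0.05, beside 48.8% positive and a median of -0.0035 over all genes.

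Heavy-strand mRNAs had fold changes near 1. For mt-Nd1, CPM was 3427, 2688, 5943, 5353 and 5433 in CNP 4, 8, 12, 16 and 20, against 2586, 2816, 3083, 7432 and 5615 in PBS 2, 6, 10, 14 and 18. The log2 fold change was 0.09 (95% interval -0.61 to 0.78). For mt-Cytb, CPM was 3989.7, 3287, 7072, 6435 and 5806 in CNP, against 3359.85, 3807, 3478, 9285 and 6604 in PBS, in the same order, with a log2 fold change of 0.0032 (-0.67 to 0.68). Both genes show low and high libraries in each group, and the intervals leave out a 2-fold change in either direction.

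Ranges of the other long mRNAs overlapped as well, with 773 to 1843 CPM in CNP and 694 to 2235 CPM in PBS for mt-Nd2, and 1359.95 to 2889.7 CPM in CNP and 1212.5 to 3635 CPM in PBS for mt-Nd4. They were 333.4 to 702 CPM in CNP and 240.3 to 831 CPM in PBS for mt-Nd5, and 682 to 1428 CPM in CNP and 555 to 1609 CPM in PBS for mt-Co1. PBS 2 was lowest and PBS 14 highest for each of these 4 genes. The remaining heavy-strand mRNAs had log2 fold changes of 0.06 for mt-Nd2, 0.04 for mt-Nd4, 0.20 for mt-Nd5, 0.12 for mt-Co1 and -0.04 for mt-Nd3. The rRNAs had -0.0044 for mt-Rnr1 (95% interval -0.79 to 0.79) and -0.18 for mt-Rnr2 (-0.97 to 0.61). With 0.86, the value of mt-Nd6 was the highest of the 10 (SE 0.52, 95% interval -0.27 to 1.99, edgeR adjusted p = 0.9999). Its CPM was 25.0 ± 15.8 in CNP and 14.5 ± 11.6 in PBS (SD, n = 5 each). Without CNP 20 the log2 fold change of mt-Nd6 was 0.41, and without PBS 18 it was 1.40 (edgeR unadjusted p = 0.0138, adjusted p = 0.99998). Without CNP 12, values were -0.029 for mt-Nd1, -0.089 for mt-Nd2, -0.098 for mt-Nd4, -0.020 for mt-Co1, -0.12 for mt-Cytb and 0.89 for mt-Nd6. Directions of the values near 0 turn with the scaling, with mt-Cytb at -0.0028 under DESeq2 size factors and mt-Rnr1 and mt-Nd3 at 0.04 and 0.03 with library totals in place of TMM.

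**Figure D5:**
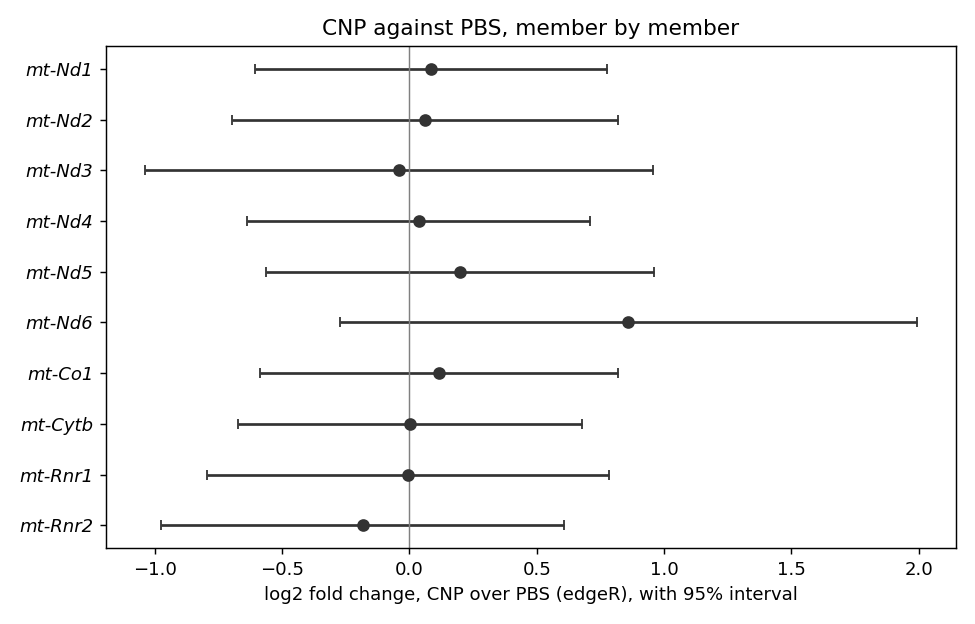
Log2 fold change of each gene, CNP over PBS, from edgeR, with its 95% interval as a horizontal line. All 10 intervals cross 0, and that of mt-Nd6 reaches from -0.27 to 1.99.

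The width of these intervals follows the spread between libraries. The biological coefficient of variation was 33.9% for mt-Cytb, 34.8% for mt-Nd1 and 55.2% for mt-Nd6, and 49.9% for mt-Nd3, against a median of 16.02% over the 1871 genes with a mean of 100 CPM or more. The median over all genes tested was 15.8%. The 95% interval lay within 2-fold in either direction for 94.2% of all genes. It did so for 8 of the 10 genes, the exceptions being mt-Nd3 (-1.04 to 0.96) and mt-Nd6.

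The mitochondrial mRNAs were set beside their nuclear partners, since the respiratory complexes hold subunits from both genomes. The counted mRNAs lack mt-Co2, mt-Co3, mt-Atp6, mt-Atp8 and mt-Nd4l, which had no counts. They include mt-Co1, mt-Nd3 and mt-Nd4, whose levels are uncertain. The ratio therefore serves to compare libraries, and its size does not give the balance of both genomes. Counts of the 8 mRNAs over those of 75 (of 90 listed) nuclear genes of oxidative phosphorylation (OXPHOS) gave 0.309, 0.293, 0.445, 0.400 and 0.438 in CNP 4, 8, 12, 16 and 20, against 0.293, 0.301, 0.291, 0.492 and 0.447 in PBS 2, 6, 10, 14 and 18. Each group holds a low and a high set of libraries. Means were 0.377 ± 0.0718 in CNP and 0.365 ± 0.0967 in PBS (SD, n = 5 each), a log2 difference of 0.06 (exact permutation p = 0.833, two-sided; p = 0.833 adjusted over 4 ratios). Without PBS 10 the difference was -0.0076, without PBS 2 -0.0055 and without CNP 12 -0.0016.

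Of the 75 nuclear OXPHOS genes, 0 passed edgeR's adjusted threshold in either direction, where 0% of all genes did. Log2 fold changes were positive for 58 and negative for 17 (77.3% positive), with a median of 0.04 and a range of -0.07 to 0.13. Over all genes tested 48.8% were positive, with a median of -0.0035. The signs are not separate results, since 39 of the 75 genes also separated by library number, as given below. Among the 75 OXPHOS genes, those with the smallest p included the complex I subunits Ndufv2 at 0.13 and Ndufb5 at 0.12. Also among them were the ATP synthase subunit Atp5d at -0.07 and the complex II subunit Sdhc at -0.07.

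Genes that copy, transcribe and process mitochondrial nucleic acids are encoded in the nucleus, and 37 of 43 listed ones could be tested. Of these, 0 passed in either direction, where 0% of all genes did. Log2 fold changes were positive for 14 and negative for 23 (37.8% positive), with a median of -0.05. Over all genes tested 48.8% were positive, with a median of -0.0035. The mitochondrial RNA polymerase Polrmt was at -0.31 on the log2 scale (-0.85 to 0.23, 95% interval), and Tfam, which packs the genome and starts transcription, had -0.05 (-0.34 to 0.24). The elongation factor Tefm had 0.03 (-0.32 to 0.37). Lrpprc and Slirp, whose complex stabilises heavy-strand mRNAs, had 0.09 (-0.17 to 0.35) and 0.06 (-0.22 to 0.34). The smallest p belonged to Elac2, which cuts precursors at the 3′ ends of tRNAs, at -0.25, then Mterf3 at -0.17 and Mterf2 at -0.29, of a family that binds mitochondrial DNA, and the rRNA methyltransferase Mrm1 at -0.39.

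Proteins of the mitochondrial ribosome, which translates these mRNAs, gave 44 positive and 33 negative values among 77 tested, with a median of 0.02 and 0 past the threshold. This was 57.1% positive, beside 48.8% positive and a median of -0.0035 over all genes, where 0% passed. Mrps6 had 0.22, Mrpl55 0.11, Mrps22 -0.15 and Mrps35 -0.16.

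The high and low libraries in each group follow the numbers in the labels. CPM of 9 of the 10 genes was higher in every library numbered above 10 (CNP 12, 16 and 20, PBS 14 and 18) than in every library numbered up to 10 (CNP 4 and 8, PBS 2, 6 and 10), against 9.82% of all genes tested. None was lower above 10 without overlap, against 10.8% of all genes. The same separation, higher above 10, was found for 39 of the 75 nuclear OXPHOS genes, 32 of the 77 mitochondrial ribosome genes and 4 of the 37 genes for mitochondrial transcription and RNA processing. The nuclear OXPHOS share of all counts did not overlap either, at 3.78% to 4.39% above 10 and 3.27% to 3.74% up to 10. The labels do not call the numbers a batch. For mt-Nd1 the ranges were 5353 to 7432 CPM above 10 and 2586 to 3427 CPM up to 10. Values of mt-Nd6 overlapped, at 15.9 to 51.7 CPM above 10 and 4.31 to 23.6 CPM up to 10. The ratio of rRNA to mRNA overlapped too, at 0.821 to 1.51 above 10 and 0.865 to 1.12 up to 10.

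The ratio of mitochondrial mRNA to nuclear OXPHOS mRNA did not overlap, with 0.400 to 0.492 above 10 and 0.291 to 0.309 up to 10. Marker levels use library totals alone, unlike the TMM-scaled CPM of the single genes above. Summed rod markers were 50125 to 64439 CPM above 10 and 42463 to 48149 CPM up to 10. Pigment epithelium markers were 1296 to 2203 CPM above 10 and 479 to 1212 CPM up to 10, and lens markers 235 to 3231 CPM above 10 and 204 to 7734 CPM up to 10. Mueller glia markers were 1379 to 2236 CPM above 10 and 2054 to 2512 CPM up to 10, and ganglion cell markers 1053 to 1547 and 1320 to 1747 CPM. Microglia, cone and bipolar cell markers overlapped as well. Library totals were 3328518 to 4337612 above 10 and 4325794 to 5428697 up to 10. The part of markers and totals in the mitochondrial levels was not tested.

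Within these sets the comparison of CNP with PBS rests on 2 against 3 libraries up to 10 and 3 against 2 above 10. The difference in mean log2 CPM, CNP minus PBS, was positive up to 10 and negative above 10 for 9 of the 10 genes. Among these, it was 0.11 up to 10 and -0.21 above 10 for mt-Nd1, 0.56 and -0.63 for mt-Nd3, 0.38 and -0.20 for mt-Nd5, and 0.29 and -0.72 for mt-Rnr2. For mt-Nd6 it was 1.18 up to 10 and 0.24 above 10. The difference between the sets was not tested. How many of all genes tested are positive up to 10 and negative above 10 was not computed. Because the listed genes are read from shared precursors, their signs are not independent observations. With the library number above 10 as a covariate, edgeR gave a log2 fold change of 0.70 for mt-Nd6 and -0.13 for mt-Cytb, and 0 of the 10 genes passed (smallest adjusted p = 0.9996).

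Genes outside the mitochondrial genome whose log2 CPM most resembled the log2 summed CPM of the 8 mRNAs were Stx3, Anapc11, Rtbdn, Ciao2a and Tma7. Pearson's r was 0.989 to 0.992 over the 10 libraries, which share their depth and scaling, and these were the highest of 11487 genes compared, so the values are a description. For Stx3, a syntaxin of ribbon synapses, CPM was 993, 941, 1353, 1331 and 1353 in CNP 4, 8, 12, 16 and 20, against 866, 968, 963, 1613 and 1343 in PBS 2, 6, 10, 14 and 18.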

How the data were processed

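Bulk polyA RNA from 10 libraries was copied into cDNA from barcoded primers that hold molecular identifiers (UMIs), amplified and sequenced, per the labels' protocols. STAR and STARsolo with build GRCm39 are named, per the submitters' processing notes; versions, annotation release, strand, multi-mapping and identifier settings were not given in the sources used here. The authors deposited raw whole-number counts per Ensembl gene, and columns were matched by library name. Totals per library are given above; intervals cover counting error only.

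The members and gene lists were chosen with earlier results of these data known. Named genes are the listed members, other mitochondrial rows and nuclear copies, 4 genes per list with the smallest p plus 5 fixed ones, and the 5 genes most alike. Counts were filtered with filterByExpr (minimum count 10, minimum total 15; 11499 of 57186 genes), scaled by TMM and tested with edgeR 4.0.16 (R 4.3.3). Tests were two-sided, and p-values were adjusted by Benjamini-Hochberg over all genes tested. DESeq2 1.42.0 and limma 3.58.1 served as alternatives. Ratios were tested by exact permutation with scipy 1.17.1. Within-group pairs of libraries differed beyond counting noise (20 pairs, chi-square per degree of freedom 3.99 to 32.6). The edgeR fit alone was tried on simulated counts.

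Gene lengths, symbols and transcript sequences are those of GENCODE M21, which is on GRCm38, so coordinates are not given. A copy was listed when at least 40 windows of 50 bases were shared.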

Additional observations from a re-analysis of the deposited data

How the results depend on the processing

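No paired analysis was run, because the labels name no pairs of CNP and PBS libraries. Whether any of these retinas came from the same mouse is unstated. The count of genes called was 0 under 9 alternatives and 0 without each library in turn; genes at an unadjusted p under 0.05 numbered 137, against 86 by DESeq2, 422 of 22756 without the low-count filter, 273 with library number above 10 as a covariate and 117 to 301 without each library in turn (301 without PBS 14). None of the 10 listed genes passed the adjusted threshold in any of these edgeR, DESeq2 or limma-voom fits, and none of the 4 ratios passed with all libraries or without each in turn. Within the numbered sets, 2 against 3 libraries, the exact test has 10 assignments and cannot give a p below 0.2. The fitted values of mt-Nd5 and mt-Nd6 were positive in these fits (0.03 to 0.49 and 0.41 to 1.40), but the difference in mean log2 CPM of mt-Nd5 among libraries above 10 was -0.20. Signs of values near 0 turned, and the cause was not tested. With limma-voom, log2 fold changes were 0.089 for mt-Rnr1 and 0.25 for mt-Nd3. With library totals they were 0.038 for mt-Rnr1 and 0.031 for mt-Nd3. For mt-Cytb, DESeq2 and its size factors gave -0.0028 each. With the number covariate they were -0.057 for mt-Nd1, -0.064 for mt-Nd2, -0.11 for mt-Nd4, -0.031 for mt-Co1 and -0.13 for mt-Cytb. The log2 difference of the rRNA to mRNA ratio was 0.18 within libraries numbered up to 10, and that of the mitochondrial to nuclear OXPHOS mRNA ratio -0.13 within those above 10 (exact permutation p = 0.6 and 0.2).

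Without each library in turn, ranges were -0.22 to 0.31 for mt-Rnr1, -0.35 to 0.14 for mt-Rnr2, -0.053 to 0.38 for mt-Nd1, -0.10 to 0.36 for mt-Nd2, -0.28 to 0.40 for mt-Nd3, -0.11 to 0.33 for mt-Nd4, -0.033 to 0.38 for mt-Co1 and -0.12 to 0.30 for mt-Cytb. Leaving out PBS 2, PBS 6 or CNP 12 made mt-Nd1, mt-Nd2, mt-Nd4, mt-Co1 and mt-Cytb negative, as did PBS 10 for these genes except mt-Co1, and CNP 16 or CNP 20 for mt-Nd4 and mt-Cytb. Leaving out PBS 14 or PBS 18 made mt-Rnr1, mt-Rnr2 and mt-Nd3 positive, as did CNP 4 or CNP 8 for mt-Rnr1 and mt-Nd3. Ratio differences ranged from -0.16 to 0.041 for rRNA to mRNA (positive without PBS 18) and from -0.0076 to 0.18 for mitochondrial to nuclear OXPHOS mRNA (negative without PBS 2, PBS 10 or CNP 12). For mt-Nd6 to heavy-strand mRNA they were 0.58 to 1.10, and for mt-Rnr2 to mt-Rnr1 -0.18 to -0.03. Within the numbered sets the mt-Rnr2 to mt-Rnr1 difference was 0.08 up to 10 and -0.27 above 10, and was not tested there. The difference in the share of counts was -0.24 to 0.38 percentage points.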
